A study of Mus musculus with 8 samples.

Results

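The genes described here are 6 markers of spleen macrophages and other myeloid cells, measured in dendritic cells: Spic, Vcam1, Adgre1, Lyz2, Cd68 and Cd14. They were taken by name, with 1 row of the array table annotated to each of them alone, out of 19938 genes with a symbol of their own. The cells came from the spleen of untreated mice that carry a yellow fluorescent reporter (EYFP) for Il12b, the gene of the interleukin 12 p40 subunit, so every group shares the reporter allele. All samples were sorted as lineage-negative, with no or low BST2, high CD11c and CD8α, which defines the XCR1+ dendritic cell, the subset known for showing antigen to CD8 T cells. CCR7+Il12b+ cells carried the chemokine receptor CCR7 and reporter fluorescence (n = 2), CCR7+Il12b- cells carried CCR7 without fluorescence (n = 3), and immature cells had neither (n = 3). The labels call the first 2 groups homeostatically matured. Age and pooling of the mice are not stated in these sources. The labels do not say that each replicate is a different mouse, and every p-value below therefore rests on the spread of these samples, part of which may be technical.

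In the spleen, red pulp macrophages clear aged red cells and recycle their iron. SPI-C, an ETS-family transcription factor closely related to PU.1, is required for these macrophages in mice, VCAM-1 and F4/80 (the product of Adgre1) are used to recognise them, and lysozyme, CD68 and CD14 are read as general myeloid products. A conventional dendritic cell is therefore often told from a macrophage by low levels of such genes, and the comparison asked how they stood in the 3 sorted fractions.

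The 6 genes did not move as 1 block. Spic and Vcam1 rose steeply in both matured groups, Lyz2, Cd68 and Cd14 fell, and Adgre1 differed by a small amount and near background. In CCR7+Il12b- against immature cells, 3 of the 6 rose and 3 fell, where 9.1% of all genes were called higher and 14.5% lower (23.6% in all). In the same comparison the samples of all 6 did not overlap between groups, 3 being higher and 3 lower, which held for 41.3% of all genes (22.1% higher and 19.2% lower). In CCR7+Il12b+ against immature cells, 2 rose and 3 fell, against 14.1% and 17.9% of all genes (32.0% in all). Here 5 of the 6 did not overlap, 2 higher and 3 lower, as did 57.1% of all genes (33.5% higher and 23.6% lower). Between CCR7+Il12b+ and CCR7+Il12b- cells none rose and 3 fell, against 2.61% and 4.47% of all genes (7.08% in all). There 5 did not overlap, 1 higher and 4 lower, as did 29.6% of all genes (15.3% higher and 14.3% lower). To rise or fall means to pass 0.05 in limma after Benjamini-Hochberg adjustment across every gene of the table. The median absolute log2 change of the 6 genes was 1.42, 2.87 and 0.59 in these 3 comparisons, and that of all genes 0.18, 0.25 and 0.13.

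**Figure D1:**
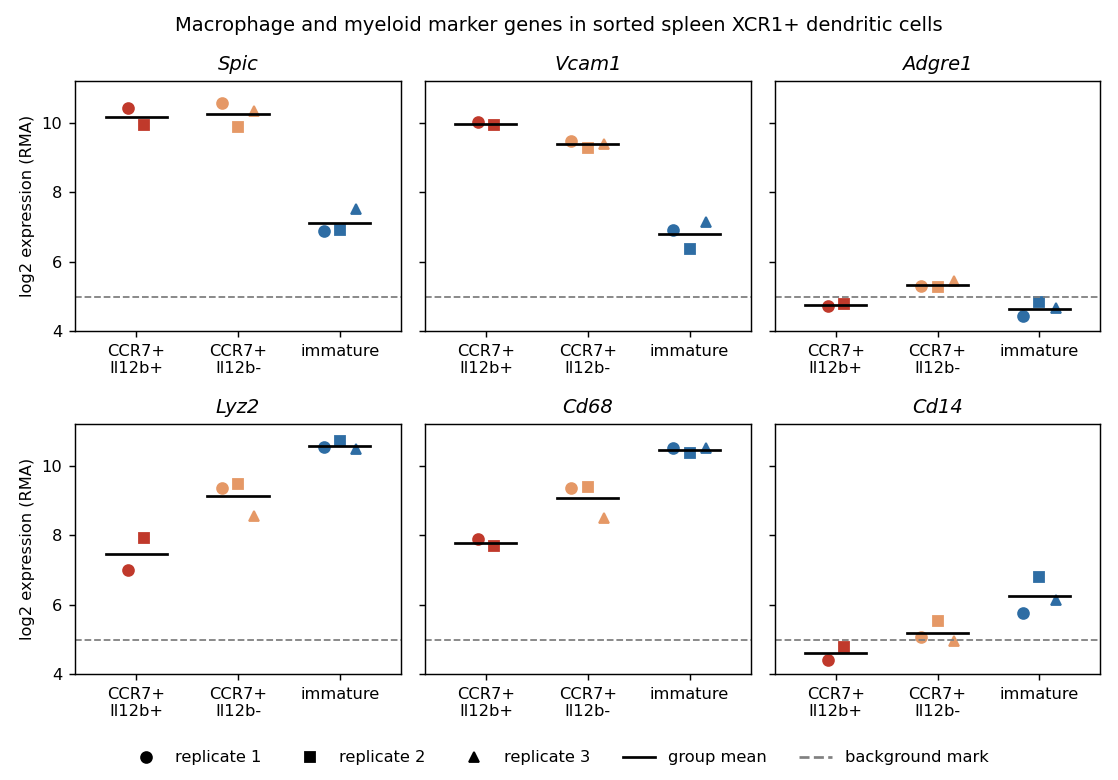
Log2 expression of each of the 6 genes on every array, with group means as bars, the groups on the horizontal axis and the background mark of 4.98 as a dashed line. Spic and Vcam1 lie above 9 in all matured samples and below 8 in all immature ones, while Lyz2, Cd68 and Cd14 are lowest in CCR7+Il12b+ samples. Heights can be compared within a panel, not between genes.

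The array table gives no sequence, so the upstream windows of RefSeq (build GRCm38.p6) are shown for the members that have one, to set the rising Spic beside the falling Lyz2 and Cd68. Of the 6 members 3 matched. Each window holds the 250 bases before the annotated gene start, all on the minus strand and written 5′ to 3′ on the gene's strand. Capitals mark matches on either strand to AGGAAG or GAGGAA, letters of the core bound by PU.1 and other ETS factors, to TGANTCA, the core of AP-1 and of BACH factors. A core of NF-kB (3 G, 5 free bases and 2 C) was searched as well. Lyz1, the neighbouring copy of Lyz2, is given as well because its probe set may share signal with that of Lyz2. The windows lie at chr10:88683024-88683273 for Spic, chr10:117282273-117282522 for Lyz2, chr10:117292869-117293118 for Lyz1 and chr11:69666171-69666420 for Cd68.
Spic: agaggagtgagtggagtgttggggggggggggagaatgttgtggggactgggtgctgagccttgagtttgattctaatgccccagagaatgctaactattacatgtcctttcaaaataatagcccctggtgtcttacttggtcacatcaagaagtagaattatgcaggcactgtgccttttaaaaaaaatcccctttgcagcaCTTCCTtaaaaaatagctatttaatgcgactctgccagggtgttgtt
Lyz2: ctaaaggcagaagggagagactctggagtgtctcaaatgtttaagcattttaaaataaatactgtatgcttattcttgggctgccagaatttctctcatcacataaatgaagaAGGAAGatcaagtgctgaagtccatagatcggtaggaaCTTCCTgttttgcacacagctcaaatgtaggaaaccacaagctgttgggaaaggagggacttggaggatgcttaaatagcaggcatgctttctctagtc
Lyz1: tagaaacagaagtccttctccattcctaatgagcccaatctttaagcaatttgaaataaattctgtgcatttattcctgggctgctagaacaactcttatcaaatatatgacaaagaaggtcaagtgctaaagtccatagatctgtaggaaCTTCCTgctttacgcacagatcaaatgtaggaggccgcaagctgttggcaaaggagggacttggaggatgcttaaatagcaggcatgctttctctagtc
Cd68: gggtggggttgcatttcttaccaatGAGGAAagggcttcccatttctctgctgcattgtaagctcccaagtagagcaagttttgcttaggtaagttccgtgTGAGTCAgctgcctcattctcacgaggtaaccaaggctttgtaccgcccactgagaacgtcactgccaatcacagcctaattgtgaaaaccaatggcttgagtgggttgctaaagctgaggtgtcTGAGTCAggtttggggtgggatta

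AGGAAG was found in the windows of Spic, Lyz2 and Lyz1, thus beside the gene that rose and beside those that fell, and 29.5% of all 32851 upstream windows of this length hold it. The match nearest the start lay 47 to 42 bases before it in Spic and 99 to 94 bases before it in both lysozyme genes. Cd68 had 1 match to GAGGAA, which 23.3% of windows hold, and 2 matches to TGANTCA, which 6.75% hold, at 149 to 143 and 24 to 18 bases before its start. The NF-kB core had no match in these 4 windows, and 45.8% of all windows have it. No match overlapped another motif. Lyz2 and Lyz1 shared 92 of the last 100 bases before the start, where Spic and Lyz2 shared 27. A match is a description of letters and not evidence of binding.

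Spic encodes SPI-C, the ETS factor of red pulp macrophages. Its log2 values were 10.42 and 9.93 in CCR7+Il12b+ samples, 10.57, 9.87 and 10.32 in CCR7+Il12b- samples, and 6.87, 6.92 and 7.52 in immature samples. Both matured groups lay more than 2 log2 units above the highest immature sample, and they overlapped each other. Spic was 8.87-fold higher in CCR7+Il12b- than in immature cells (log2 change 3.15 ± 0.22 SE, adjusted p = 2.80e-06, limma), a change of rank 39 by size among all genes. In CCR7+Il12b+ cells it was 8.37-fold higher than in immature cells (3.07 ± 0.24, adjusted p = 3.12e-06). The matured fractions differed by -0.08 ± 0.24 (adjusted p = 0.922, limma), with a 95% interval of -0.62 to 0.45, so a difference of up to about that size in either direction is not excluded by these arrays.

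The order of Spic levels was thus CCR7+Il12b- and CCR7+Il12b+, which did not differ beyond their spread, then immature cells. The immature mean of 7.11 was itself above the background mark of 4.98, the level below which 95% of the odorant and vomeronasal receptor genes lay.

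Vcam1 encodes the adhesion molecule VCAM-1, a ligand of the α4β1 integrin that holds leukocytes at its carrier. It stood at 10.01 and 9.94 in CCR7+Il12b+ samples, at 9.46, 9.26 and 9.40 in CCR7+Il12b- samples, and at 6.92, 6.36 and 7.14 in immature samples. No 2 groups overlapped, and the matured samples differed little within their groups (SD 0.05 and 0.10, against 0.40 among immature samples). Vcam1 rose 8.98-fold in CCR7+Il12b+ against immature cells (log2 change 3.17 ± 0.19, adjusted p = 4.98e-07, limma). It rose 5.93-fold in CCR7+Il12b- against immature cells (2.57 ± 0.17, adjusted p = 2.15e-06). Between the matured fractions the difference was 0.60 ± 0.19 (95% interval 0.18 to 1.02), which did not pass the adjusted threshold (adjusted p = 0.0982, unadjusted p = 0.00979 in limma's fit). It did pass when only those groups were fitted (adjusted p = 0.0376), without immature replicate 2 (0.0279) and, narrowly, with a replicate block (0.04998).

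Adgre1 encodes F4/80, an adhesion-type G protein-coupled receptor and the classical mouse macrophage antigen. Its values were 4.72 and 4.79 in CCR7+Il12b+ samples, 5.31, 5.27 and 5.45 in CCR7+Il12b- samples, and 4.44, 4.84 and 4.67 in immature samples. The CCR7+Il12b- samples alone lay above the background mark of 4.98, and by less than 0.5. Since the immature mean of 4.65 was below that mark, the change in CCR7+Il12b- cells is given as a bound of at least 1.29-fold higher (log2 change as measured 0.69 ± 0.12, adjusted p = 0.00171, limma). CCR7+Il12b+ and immature cells were both below the mark, and differed by 0.11 ± 0.14 (adjusted p = 0.583, 95% interval -0.19 to 0.40), which turned to -0.01 and -0.05 after quantile and loess normalization.

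CCR7+Il12b+ cells were at least 1.29-fold below CCR7+Il12b- cells for Adgre1 (-0.59 ± 0.14 as measured, adjusted p = 0.0251). That call ended without CCR7+Il12b- replicate 1 or 2 (adjusted p = 0.0559 and 0.0586), without either CCR7+Il12b+ replicate (0.124 and 0.0794), with array weights (0.0678) and with a replicate block (0.0620).

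Lyz2 encodes lysozyme M, an enzyme that cuts bacterial cell walls. The samples read 7.02 and 7.92 for CCR7+Il12b+, 9.35, 9.47 and 8.55 for CCR7+Il12b- and 10.54, 10.70 and 10.49 for immature cells. The groups did not overlap, and the spread was wider among CCR7+Il12b+ (SD 0.64) and CCR7+Il12b- samples (0.50) than among immature ones (0.11). Lyz2 fell 8.62-fold in CCR7+Il12b+ against immature cells (log2 change -3.11 ± 0.29, adjusted p = 9.77e-06, limma) and 2.74-fold in CCR7+Il12b- against immature cells (-1.45 ± 0.26, adjusted p = 0.00185).

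CCR7+Il12b+ cells were also 3.14-fold below CCR7+Il12b- cells for Lyz2 (-1.65 ± 0.29, adjusted p = 0.00611). Without CCR7+Il12b+ replicate 1 the difference was -1.20 and no longer passed (adjusted p = 0.0696).

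Lyz1, the intestinal lysozyme gene that neighbours Lyz2 and resembles it closely, fell as well. It averaged 6.06 ± 0.16 (SD, n = 2) in CCR7+Il12b+, 6.90 ± 0.42 (n = 3) in CCR7+Il12b- and 8.19 ± 0.06 (n = 3) in immature cells. Its log2 change was -2.13 ± 0.20 in CCR7+Il12b+ and -1.29 ± 0.18 in CCR7+Il12b- against immature cells (adjusted p = 1.10e-05 and 0.000392, limma). Signal shared between the probe sets of these copies was not tested, so the value of Lyz1 is uncertain.

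Cd68 encodes a heavily glycosylated protein of late endosomes and lysosomes, a member of the LAMP family. It was 7.89 and 7.70 in CCR7+Il12b+ samples, 9.37, 9.39 and 8.49 in CCR7+Il12b- samples, and 10.52, 10.38 and 10.50 in immature samples. The order was the same as for Lyz2, with no overlap. The fall was 6.39-fold in CCR7+Il12b+ against immature cells (log2 change -2.67 ± 0.23, adjusted p = 5.65e-06, limma) and 2.61-fold in CCR7+Il12b- against immature cells (-1.38 ± 0.21, adjusted p = 0.000625). The matured fractions differed 2.45-fold, with less in CCR7+Il12b+ cells (-1.29 ± 0.23, adjusted p = 0.00693), a call that ended without CCR7+Il12b+ replicate 2 (adjusted p = 0.0599).

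CCR7+Il12b- replicate 3 had the lowest Lyz2, Cd68 and Cd14 values of its group, closer to the CCR7+Il12b+ samples than the other replicates were. The same sample was the lowest of its group for 11 of 14 XCR1+ dendritic cell identity markers, among them Naaa (9.06, against 10.12 and 10.34 in replicates 1 and 2) and Xcr1 (8.94, against 9.85 and 9.83), which were picked after their values were seen. Without that sample Lyz2 and Cd68 still fell in CCR7+Il12b- against immature cells, by 1.17 and 1.09 on the log2 scale. For Spic and Vcam1 the same sample lay between the other replicates of its group.

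Other members of the LAMP family were measured too. Lamp1, a major lysosome membrane protein, rose by 2.15 ± 0.11 in CCR7+Il12b+ and by 1.62 ± 0.10 in CCR7+Il12b- against immature cells. Lamp2, looked at after its values were seen, averaged 8.85 in CCR7+Il12b+, 8.54 in CCR7+Il12b- and 8.35 in immature cells. Lamp3 and Lamp5 were below the background mark in every group. The LAMP and lysozyme list held 7 genes, Cd68, Lyz2 and Lyz1 included. Against immature cells 1 rose and 3 fell in CCR7+Il12b-, where 9.1% of all genes were called higher and 14.5% lower. In CCR7+Il12b+ cells 2 rose and 3 fell, where 14.1% of all genes were called higher and 17.9% lower.

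Cd14 encodes the surface protein that hands lipopolysaccharide to TLR4. It read 4.42 and 4.79 in CCR7+Il12b+ samples, 5.07, 5.55 and 4.96 in CCR7+Il12b- samples, and 5.78, 6.80 and 6.15 in immature samples. The CCR7+Il12b+ samples were below the background mark and the immature samples all above it, with the widest spread of any immature value among the 6 genes (SD 0.52). Cd14 was at least 2.41-fold lower in CCR7+Il12b+ than in immature cells (-1.64 ± 0.27 as measured, adjusted p = 0.000630, limma). In CCR7+Il12b- cells it was 2.07-fold lower than in immature cells (-1.05 ± 0.24, adjusted p = 0.00807). The matured fractions differed by -0.58 ± 0.27 (adjusted p = 0.280), with a 95% interval of -1.18 to 0.01, although their samples did not overlap.

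In these bulk samples fewer cells of a type and less RNA per cell cannot be told apart, for this and the other genes.

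**Figure D2:**
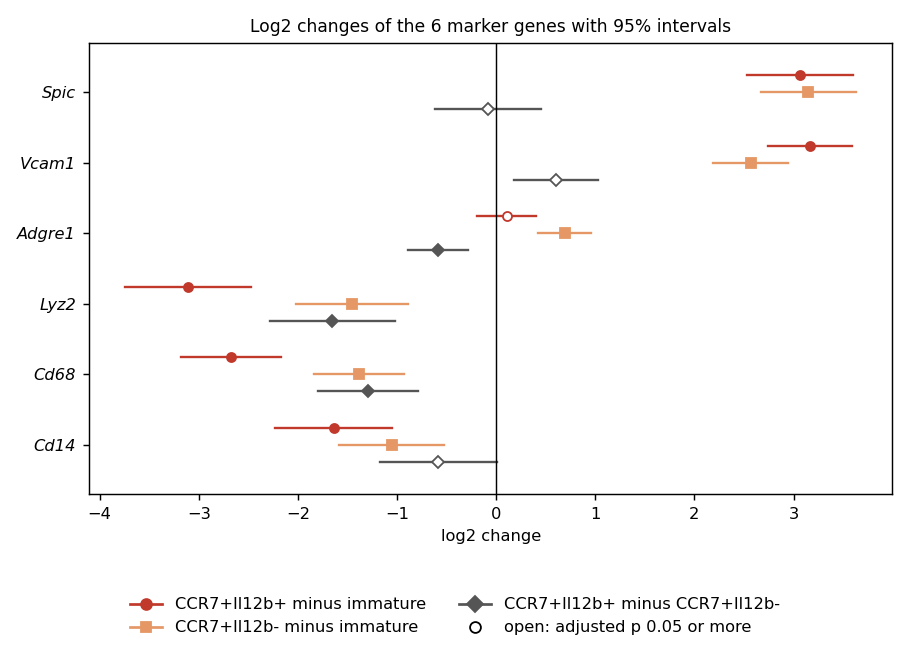
Log2 change of each of the 6 genes in 3 comparisons, with 95% intervals from limma's fit. Filled symbols have an adjusted p under 0.05. Spic and Vcam1 lie right of 2 against immature cells, and Lyz2 and Cd68 are the genes with filled symbols left of -1 in all 3 comparisons.

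Other genes by which macrophages are known were measured beside these 6, from a list of 20 genes of red pulp and marginal zone macrophages without Spic, Vcam1 and Adgre1. In CCR7+Il12b- against immature cells 2 of the 20 rose and 2 fell, and in CCR7+Il12b+ against immature cells 3 rose and 4 fell. Among all genes 9.1% were called higher and 14.5% lower in the first comparison, and 14.1% higher and 17.9% lower in the second, so these counts lie near the shares of all genes. Slco2b1 is counted among the risers in both comparisons although its means lay below the background mark in every group, so 1 and 2 rose with a mean above the mark. The median log2 changes of the list were 0.05 and 0.17, against 0.06 and 0.09 for all genes. Cd163, Cd5l, Vsig4, Mrc1, Mertk, Fcgr1, Siglec1, Slc40a1, Slco2b1 and C1qc were below the background mark in every group, which makes 10 of the 20. Of all 19938 genes, 12934 had a mean above the mark in at least 1 group, and the rest did not. The same share stands beside such counts in the lists that follow. Among the 10 are the iron exporter gene Slc40a1 and the haemoglobin scavenger receptor gene Cd163, both highly active in red pulp macrophages. Cd163 averaged 3.72 in CCR7+Il12b+, 3.79 in CCR7+Il12b- and 3.75 in immature cells.

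Called genes of that list went in both directions. Axl, a receptor for dying cells, was at least 1.85-fold higher in CCR7+Il12b+ and at least 1.61-fold higher in CCR7+Il12b- than in immature cells (adjusted p = 0.000119 and 0.000616, limma). Hpgd, which breaks down prostaglandins, fell by 2.96 ± 0.18 in CCR7+Il12b+ and by 1.94 ± 0.16 in CCR7+Il12b- against immature cells on the log2 scale. Treml4, also known from CD8α+ dendritic cells, fell by 2.28 ± 0.18 in CCR7+Il12b+ and by 1.14 ± 0.16 in CCR7+Il12b- cells. The fourth by size in CCR7+Il12b+ cells was Timd4 (-0.67 ± 0.18, adjusted p = 0.0125). That call ended when immature replicate 2 (adjusted p = 0.0518) or CCR7+Il12b+ replicate 1 (0.0726) was left out. Hmox1, the haem oxygenase gene and the most inducible step of haem breakdown, was looked at after its values were seen and averaged 11.52 ± 0.40 (SD, n = 2) in CCR7+Il12b+, 11.26 ± 0.31 in CCR7+Il12b- and 11.21 ± 0.26 in immature cells (n = 3 each), with no call in any comparison.

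The summed linear signal of the 20 genes was 3380 to 4385 in CCR7+Il12b+, 3323 to 4630 in CCR7+Il12b- and 4309 to 5313 in immature samples. These ranges overlap, and Hmox1 and Treml4 alone made up 81.6% to 87.9% of the sum in every sample, so it mostly follows those probe sets. This and the sums below add probe sets of unlike brightness and do not measure how many cells of a type were present. Without Hmox1 and Treml4, a split made after the values were seen, the other 18 genes summed to 530 to 603 in CCR7+Il12b+, 594 to 654 in CCR7+Il12b- and 792 to 891 in immature samples. Hpgd was the brightest of those 18 in immature cells and weighs heavily in that sum. It averaged 5.48 in CCR7+Il12b+, 6.50 in CCR7+Il12b- and 8.44 in immature cells on the log2 scale. Its part in the sum was not taken out. Hpgd was the brightest of those 18 in immature cells and weighs heavily in that sum. It averaged 5.48 in CCR7+Il12b+, 6.50 in CCR7+Il12b- and 8.44 in immature cells on the log2 scale. Its part in the sum was not taken out. For 9 measured monocyte markers the sum was 2036 to 2444 in CCR7+Il12b+, 3691 to 4706 in CCR7+Il12b- and 5442 to 5678 in immature samples. Chil3 and Fn1 were below the mark in every group. Ccr2, the receptor that brings monocytes into tissue, was at least 4.30-fold lower in CCR7+Il12b+ than in immature cells and fell by 1.94 ± 0.26 on the log2 scale in CCR7+Il12b- cells. S100a4 of that list rose by 0.94 ± 0.21 in CCR7+Il12b- cells. Of the 9, 1 rose and 2 fell in CCR7+Il12b-, and none rose and 3 fell in CCR7+Il12b+, against immature cells. Among all genes 9.1% were called higher and 14.5% lower in the first comparison, and 14.1% and 17.9% in the second. Nr4a1, Plac8 and S100a4 were the brightest of the 9 in every group, so the sum mostly follows them. Of 12 neutrophil markers, none was called in limma's fit in any comparison, and 7 were below the mark in every group. Their sum was 281 to 298 in CCR7+Il12b+, 271 to 308 in CCR7+Il12b- and 238 to 287 in immature samples. The 11 stromal and endothelial markers, of interest because stromal cells also carry VCAM-1, summed to 375 to 471 in CCR7+Il12b+, 406 to 431 in CCR7+Il12b- and 478 to 504.5 in immature samples. Of the 11, 1 rose and 1 fell in CCR7+Il12b-, and none rose and 1 fell in CCR7+Il12b+, against immature cells. The shares of all genes are those given for monocyte markers. Pecam1 fell, averaging 4.81 in CCR7+Il12b+, 5.39 in CCR7+Il12b- and 7.18 in immature cells. Pecam1 was the brightest of the 11 in immature cells, and its part in the sum was not taken out. Kdr rose by 0.37 ± 0.12 in CCR7+Il12b- cells. By group mean, 6 of the 11 were above the mark in CCR7+Il12b+, 8 in CCR7+Il12b- and 7 in immature cells. Cdh5, Madcam1 and Pdgfra were below it throughout. Some markers of CD11b+ dendritic cells and of B cells rose against immature cells, as Spic and Vcam1 did, while others fell. Of 12 CD11b+ dendritic cell markers, 5 rose and 1 fell in CCR7+Il12b- against immature cells, where 9.1% of all genes were called higher and 14.5% lower. In CCR7+Il12b+ against immature cells 4 rose and 2 fell, where 14.1% of all genes were called higher and 17.9% lower. The sum of the 12 was 4094 to 4311 in CCR7+Il12b+, 3901 to 4128 in CCR7+Il12b- and 1861 to 2031 in immature samples. Tmem176a, Tmem176b and Clec12a were the brightest of the 12 in both matured groups, so the sum mostly follows them there. Tmem176b averaged 10.33 in CCR7+Il12b+, 10.12 in CCR7+Il12b- and 7.88 in immature cells. Clec12a and Itgam, the gene of CD11b, were looked at after their values were seen. In the same order Clec12a averaged 10.01, 10.05 and 9.89, and Itgam 4.91, 5.16 and 5.09. Tmem176a, a membrane protein gene of that list, rose by 3.20 ± 0.19 in CCR7+Il12b+ and by 2.84 ± 0.17 in CCR7+Il12b- cells, while Cd209a fell by 2.03 ± 0.17 in CCR7+Il12b+ and by 1.02 ± 0.15 in CCR7+Il12b- cells. Clec4a2, Clec4a4 and Mgl2 of that list were below the mark in every group. Of 9 B cell markers, 3 rose and none fell in CCR7+Il12b- cells, and 1 rose and 2 fell in CCR7+Il12b+ cells, against immature cells. The same shares of all genes apply as for the CD11b+ markers. The sum of the 9 was 540.7 to 542.1 in CCR7+Il12b+, 693 to 910 in CCR7+Il12b- and 447 to 514 in immature samples. Ms4a1, the gene of CD20, rose by 0.91 ± 0.19 in CCR7+Il12b+ and by 1.51 ± 0.17 in CCR7+Il12b- cells. Ms4a1 was the brightest of the 9 in every group (7.90 in CCR7+Il12b+, 8.50 in CCR7+Il12b-, 6.99 in immature cells) and weighs heavily in that sum. The fallers in CCR7+Il12b+ cells were Cd22 (log2 change -0.91 ± 0.12) and Cd79b (-0.58 ± 0.20). In CCR7+Il12b- cells Cd79b was among the risers (0.57 ± 0.18). Cd79a, counted among the 3, was below the mark in every group, as were Ebf1 and Fcer2a. The part of other cells in the values of the 6 genes was not tested.

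**Figure D3:**
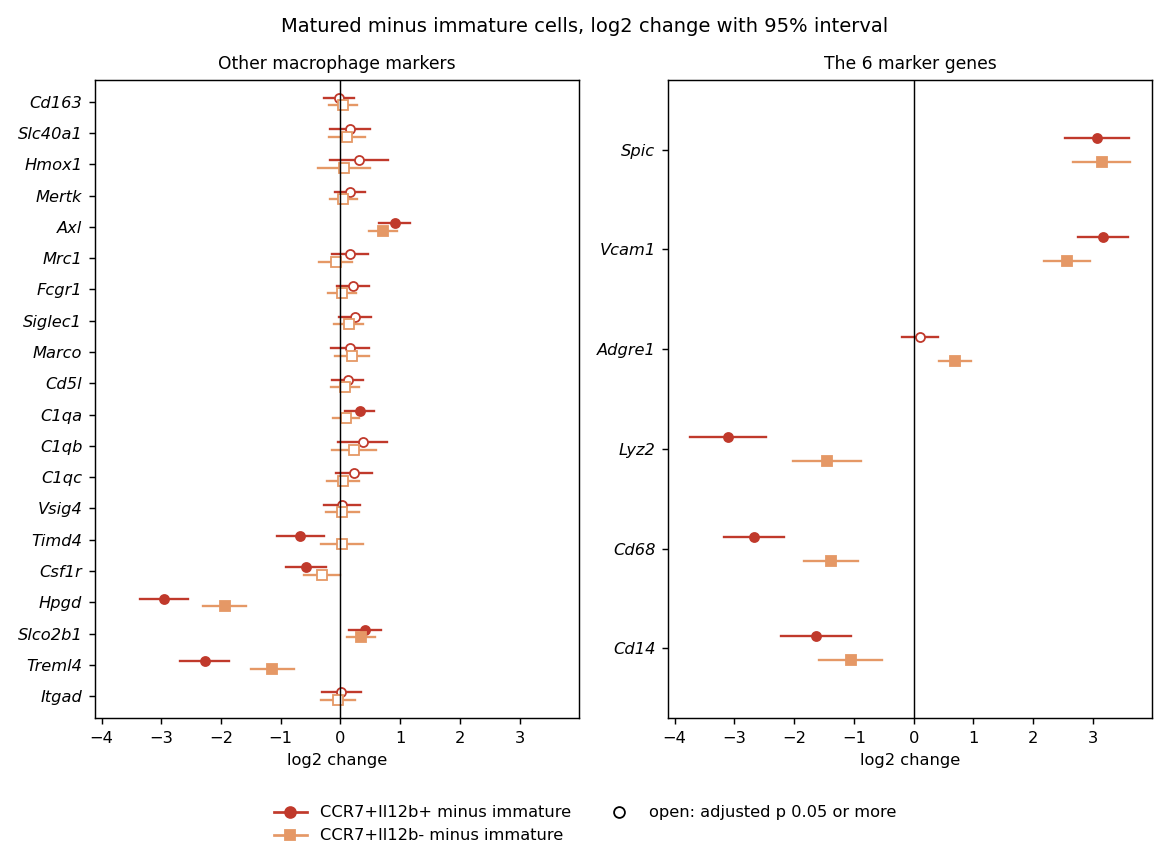
Log2 changes against immature cells with 95% intervals, for 20 other macrophage markers (left) and the 6 genes (right) on the same scale. Circles are CCR7+Il12b+ and squares CCR7+Il12b- cells, filled where the adjusted p was under 0.05. No gene on the left lies beyond 1 to the right, and Hpgd and Treml4 lie farthest to the left.

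Samples were checked against the markers of the sorted cell type. All 14 XCR1+ dendritic cell markers had group means above the background mark in every group. Their mean log2 level was 8.67 to 8.79 in CCR7+Il12b+, 9.44 to 9.93 in CCR7+Il12b- and 10.3 to 10.4 in immature samples, and 11 of 14 were called lower in CCR7+Il12b+ than in immature cells. Among all genes 17.9% were called lower in that comparison. Of the 14, 1 was called higher there, where 14.1% of all genes were. In CCR7+Il12b- against immature cells 8 were called lower and 1 higher, where 14.5% of all genes were called lower and 9.1% higher. Array medians lay between 5.25 and 5.46, and with 8 arrays precision is limited by their number.

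Spic belongs to the ETS family, of which 16 genes were measured, Spic included. In CCR7+Il12b- against immature cells 6 rose and 2 fell (median log2 change 0.01, all genes 0.06). In CCR7+Il12b+ against immature cells 6 rose and 4 fell (0.12, all genes 0.09). Among all genes 9.1% were called higher and 14.5% lower in the first of these comparisons, and 14.1% higher and 17.9% lower in the second. Spib, the gene of the other close relative SPI-B, rose by 1.41 ± 0.30 in CCR7+Il12b+ and by 1.69 ± 0.27 in CCR7+Il12b- against immature cells (adjusted p = 0.00373 and 0.000968, limma).

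Spi1, the gene of PU.1 itself, averaged 9.86 ± 0.12 (SD, n = 2) in CCR7+Il12b+, 10.16 ± 0.08 in CCR7+Il12b- and 10.32 ± 0.19 in immature cells (n = 3 each). It differed from immature cells by -0.47 ± 0.14 in CCR7+Il12b+ cells (adjusted p = 0.0215). The call ended without immature replicate 2 (0.0524) or 3 (0.0864), without CCR7+Il12b+ replicate 2 (0.145) and with a replicate block (0.0641). In CCR7+Il12b- cells its value was -0.16 ± 0.12 (adjusted p = 0.387).

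Etv3, a repressor of the family, rose by 2.64 ± 0.19 in CCR7+Il12b+ and by 2.50 ± 0.17 in CCR7+Il12b- cells. Fli1, which acts in blood and endothelial development, fell by 3.50 ± 0.16 in CCR7+Il12b+ and by 1.57 ± 0.14 in CCR7+Il12b- cells. Fli1 was the single ETS gene called between the matured fractions (-1.94 ± 0.16, adjusted p = 0.000132).

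Vcam1 was set beside the genes of adhesion ligands and their integrins. Of 12 such genes, Vcam1 included, 4 rose and 3 fell in CCR7+Il12b-, and 4 rose and 4 fell in CCR7+Il12b+ against immature cells. The median log2 changes were 0.03 and 0.01 (all genes 0.06 and 0.09). Among all genes 9.1% were called higher and 14.5% lower in the first comparison, and 14.1% higher and 17.9% lower in the second. Itga4 and Itgb1 together encode the α4β1 receptor of VCAM-1 and were singled out after their values were seen. Itga4 rose by 0.60 ± 0.13 in CCR7+Il12b+ and by 0.68 ± 0.12 in CCR7+Il12b- cells, while Itgb1 rose by 1.05 ± 0.13 in CCR7+Il12b+ and by 0.71 ± 0.12 in CCR7+Il12b- cells. Itgb7, the other partner of α4, fell by 2.24 ± 0.17 in CCR7+Il12b+ and by 1.40 ± 0.15 in CCR7+Il12b- cells.

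The chains of the leukocyte integrin LFA-1 went down. Itgal fell by 2.79 ± 0.19 in CCR7+Il12b+ and by 1.42 ± 0.17 in CCR7+Il12b- cells, and Itgb2 fell by 3.23 ± 0.16 in CCR7+Il12b+ and by 1.29 ± 0.15 in CCR7+Il12b- cells. Both were also lower in CCR7+Il12b+ than in CCR7+Il12b- cells, with log2 changes of -1.37 ± 0.19 and -1.94 ± 0.16 (adjusted p = 0.00171 and 0.000163, limma).

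Cd14 acts with TLR4 and MD-2, and 15 genes of this receptor path were measured, Cd14 included. In CCR7+Il12b- against immature cells 3 rose and 6 fell (median -0.07, all genes 0.06), where 9.1% of all genes were called higher and 14.5% lower. In CCR7+Il12b+ against immature cells 2 rose and 6 fell (median -0.25, all genes 0.09), where 14.1% of all genes were called higher and 17.9% lower. Ly96, the gene of MD-2, rose by 2.04 ± 0.28 in CCR7+Il12b+ and by 1.20 ± 0.25 in CCR7+Il12b- cells. Traf6, the ubiquitin ligase of the path, rose by 1.78 ± 0.17 in CCR7+Il12b+ and by 1.24 ± 0.15 in CCR7+Il12b- cells. Myd88, the adaptor, fell by 1.66 ± 0.23 in CCR7+Il12b+ and by 0.95 ± 0.20 in CCR7+Il12b- cells.

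Ly86, which encodes MD-1, the partner of the related receptor CD180, fell by 2.32 ± 0.18 in CCR7+Il12b+ and by 0.92 ± 0.16 in CCR7+Il12b- cells. Tlr4, named after its values were seen, was below the mark in both matured groups (3.88 in CCR7+Il12b+, 4.20 in CCR7+Il12b-) and just above it in immature cells (5.05). This allows only a fall of at least 1.05-fold in either matured group.

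**Figure D4:**
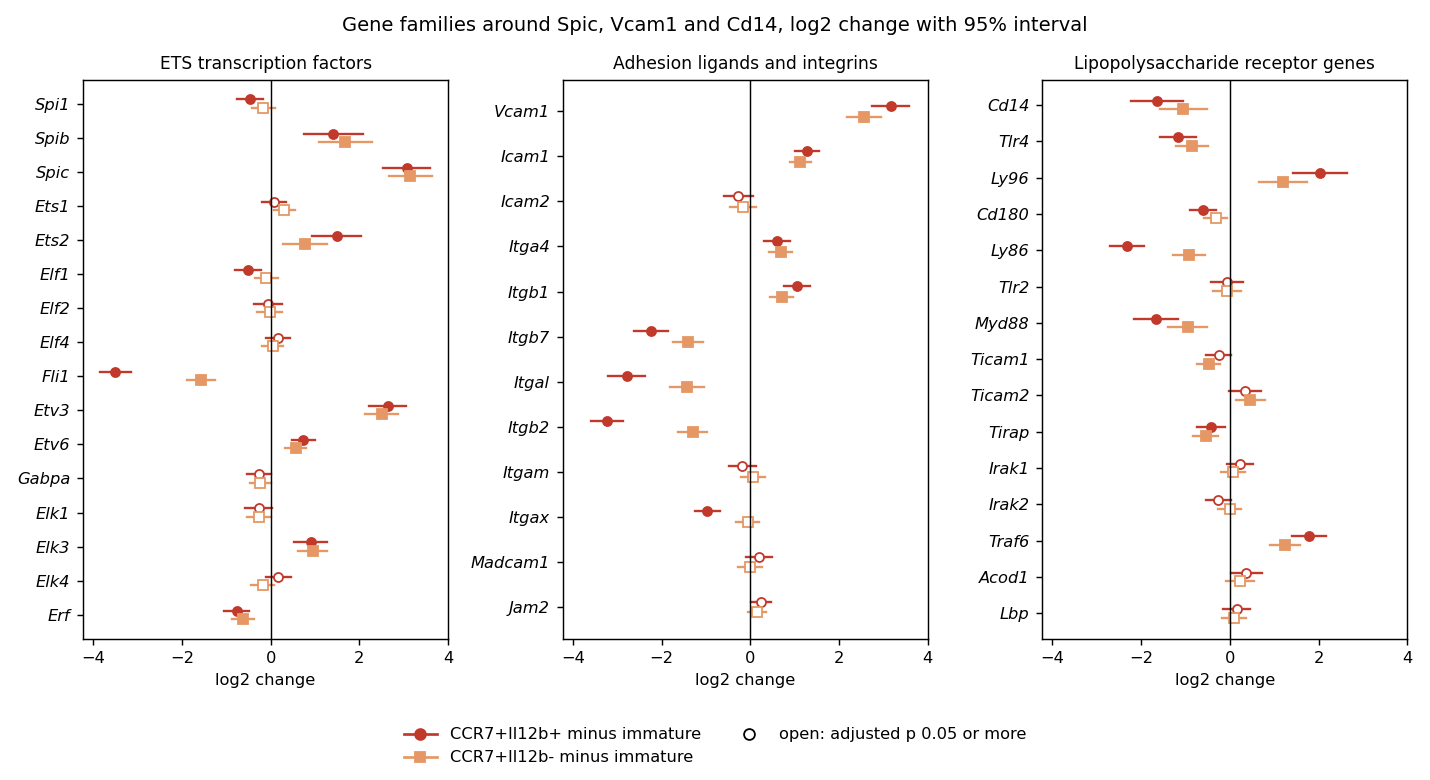
Log2 changes against immature cells with 95% intervals for ETS factors, adhesion genes and lipopolysaccharide receptor genes. Circles are CCR7+Il12b+ and squares CCR7+Il12b- cells, filled where the adjusted p was under 0.05. Spic lies farthest right among ETS genes and Vcam1 among adhesion genes, and each panel holds genes on both sides of 0.

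Among adhesion-type receptors of the class of Adgre1, itself included, 3 of 9 rose and none fell in CCR7+Il12b- cells, and 1 rose and 1 fell in CCR7+Il12b+ cells, against immature cells. The shares of all genes were 9.1% higher and 14.5% lower in the first comparison, and 14.1% higher and 17.9% lower in the second. Adgrg6 was at least 9.22-fold higher in CCR7+Il12b+ and at least 6.15-fold higher in CCR7+Il12b- cells. The 3 were Adgrg6, Adgre1 and Adgre4, and Adgre4, a close relative of F4/80, was counted although its means were below the mark in every group. Adgre5, the gene of CD97, fell by 1.39 ± 0.12 in CCR7+Il12b+ cells and was at -0.32 ± 0.11 in CCR7+Il12b- cells (adjusted p = 0.0569).

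The genes with profiles closest to each member were taken as those with the smallest root mean square difference of centred log2 values over the 8 arrays, among 12237 genes, which are those with a group mean above the mark less predicted genes and odorant and vomeronasal receptor genes. For Spic these were Gbp8, Tmem176a and Relb (0.25 to 0.27), for Vcam1 Ccl19, Tm4sf5 and Chka (0.196 to 0.200), and for Adgre1 Zeb2, Rnf213 and Iigp1 (0.09 to 0.13). Lyz2 was closest to Alg8, Camk1d and Tm6sf1 (0.16 to 0.20), Cd68 to Ckb, Samd9l and Fh1 (0.10 to 0.11), and Cd14 to Tshz1, Lgals1 and Ier2 (0.185 to 0.191). Among the members themselves, Lyz2 and Cd68 differed least (0.34) and Spic and Vcam1 next (0.38). The points of each profile share the same 8 arrays, so this is a description without a test.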

How the data were processed

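RNA from 8 sorted samples was hybridised to 1 array each. Per the labels' protocols, 3 or 20 ng of RNA went through 2 rounds of amplification before biotin labelling, and the amount per sample was not given in the sources used here. The deposited table holds log2 values, and the submitters' processing notes name RMA and oligo, without versions or options. Gene symbols came from the platform annotation, in which 21789 of 35556 rows had exactly 1 symbol, 1621 had several and 12146 had none. Several rows named the same gene in 999 cases, none of them a member, and the brightest row on average was kept, which left 19938 genes. No gene was removed before testing.

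All 8 arrays were fitted together, with a mean for each of the 3 groups, by limma 3.58.1 under R 4.3.3 (lmFit and eBayes, two-sided, 5 residual and 5.86 prior degrees of freedom). Benjamini-Hochberg adjustment ran over all 19938 genes, with calls under 0.05. Both comparisons with immature cells share the same 3 immature samples. The fit was tested on simulated data. The background mark of 4.98 is the 95th percentile of the means of 1194 odorant and vomeronasal receptor genes. Where 1 group mean was below it, a change is given as a bound, for which each array of that group was set to the mark unless its own value exceeded it.

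The members, the gene lists and the tests were chosen with earlier results of these data known. Named genes are the 6 members, at most 4 called genes per list and comparison with the largest change, Lyz1, Spi1, Spib, markers below the mark in every group, and the 3 closest profiles per member, passing over predicted genes and receptor genes. Others are said to be named after their values were seen. Some listed genes were not analysed here, and counts are over the measured members of each list. Motifs were searched by exact letters on both strands, and upstream windows were compared with Biopython 1.88.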

Additional observations from a re-analysis of the deposited data

How the results depend on the processing

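Each of the 6 genes was refitted in each comparison under median centring, quantile or loess normalization, 2 filters, a replicate block, the compared groups alone, the mean of all rows, a variance trend, array weights and without each array in turn. Adgre1 and Cd14 have no value among genes above the median. Against immature cells, every call of the 6 genes kept its direction and its side of the threshold in all of these. Between CCR7+Il12b+ and CCR7+Il12b- cells, Adgre1 no longer passed with a replicate block (-0.55, adjusted p = 0.0620) or array weights (-0.55, adjusted p = 0.0678). Vcam1 passed there with a replicate block (0.69, adjusted p = 0.04998) and with the compared groups alone (0.60, adjusted p = 0.0376). Values without a call changed sign for Adgre1 in CCR7+Il12b+ against immature cells after quantile (-0.013) and loess normalization (-0.050). The same held for Spic between the matured fractions with a replicate block (0.039), array weights (0.045), without CCR7+Il12b- replicate 1 (0.08) and without CCR7+Il12b+ replicate 2 (0.16).

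Leaving out 1 array at a time gave, between the matured fractions, 712 to 1771 called genes (1412 with all arrays) and 1 to 4 called members (3 with all arrays). Only 1 member was called there without CCR7+Il12b+ replicate 1 and without CCR7+Il12b+ replicate 2, and called genes fell to 712 without CCR7+Il12b+ replicate 1, 786 without CCR7+Il12b- replicate 2 and 925 without CCR7+Il12b- replicate 1. Log2 changes ranged from -0.62 to -0.53 for Adgre1, -1.59 to -1.14 for Cd68, -2.11 to -1.20 for Lyz2, -0.33 to 0.16 for Spic and 0.55 to 0.64 for Vcam1. Where 1 CCR7+Il12b+ sample remained, it was assumed to vary like the other groups. Replicate numbers in the titles were not taken as pairs. Deviations of same-numbered samples correlated from -0.14 to 0.21 across genes, and those of different-numbered samples from -0.21 to 0.17. Between the matured fractions the same-numbered samples correlated at 0.21 and 0.13. With 2 CCR7+Il12b+ arrays their deviations mirror each other, so these values cannot decide whether the samples were paired. With the replicate block 4318, 5767 and 1153 genes were called in the 3 comparisons, against 4706, 6383 and 1412 without it. Adgre1 and Cd14 had group means below the background mark, where a change is known only as a bound.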

Other observations

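Haem and iron genes, which SPI-C-dependent macrophages use heavily, were measured in the same samples. Of 15 such genes 5 rose and 3 fell in CCR7+Il12b+ against immature cells, and 3 rose and 2 fell in CCR7+Il12b- against immature cells (median log2 change 0.06 in both, all genes 0.09 and 0.06). Among all genes 14.1% were called higher and 17.9% lower in CCR7+Il12b+, and 9.1% higher and 14.5% lower in CCR7+Il12b- cells. Nqo1, counted among the 5, was below the background mark in every group. Tfrc, the transferrin receptor gene for iron uptake, fell by 1.63 ± 0.16 in CCR7+Il12b+ and by 1.03 ± 0.14 in CCR7+Il12b- cells. Blvra, a biliverdin reductase gene, fell by 0.96 ± 0.15 in CCR7+Il12b+ and by 0.63 ± 0.13 in CCR7+Il12b- cells. Ftl1, the ferritin light chain gene, rose by 0.64 ± 0.11 in CCR7+Il12b+ cells (adjusted p = 0.00106, limma). Fth1, the ferritin heavy chain gene, was looked at after its values were seen and went the other way. It averaged 11.65 in CCR7+Il12b+, 11.90 in CCR7+Il12b- and 12.13 in immature cells, with no overlap between groups. Bach1, the gene of the haem-sensing repressor that acts on Spic in mouse macrophages, was looked at after its values were seen and averaged 7.70 in CCR7+Il12b+, 7.74 in CCR7+Il12b- and 7.64 in immature cells, with no call.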
